A study of Mus musculus with 72 samples.

Results

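The Cyp2c genes of the mouse encode microsomal cytochrome P450 enzymes of the liver. Of the 10 listed for description (Cyp2c29, Cyp2c37, Cyp2c38, Cyp2c39, Cyp2c40, Cyp2c44, Cyp2c50, Cyp2c54, Cyp2c55 and Cyp2c70), 9 had a probe set that the array annotation assigns to that gene alone, out of 19938 genes measured in this way. Where a gene has several such probe sets, the one used is selected on its mean over all arrays, but each of the 9 had exactly 1, so that no measured value took part in the choice. Cyp2c40 was not measured, since no probe set carries its symbol alone. Cyp2c44 appears in the annotation under the symbol Cyp2c23.

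The livers came from male wild-type mice of 4 inbred strains, 129P2/OlaHsd (129), C57BL/6J (B6J), C57BL/6NTac (B6N) and C3HeB/FeJ (C3H). All were housed singly and were sampled randomly fed, and the study compared strains that develop fatty liver on a high-fat diet (HFD). HFD mice had been fed the diet for 21 days and were 17 weeks old. Control mice carry the treatment label none, and the treatment protocol names a low-fat diet given for up to 21 days. The 129 controls were 17 weeks old, and the controls of the other strains 15 to 17 weeks, so that age was not fully matched. There were 8 control and 7 HFD arrays for 129, 8 and 7 for B6J, 8 and 8 for B6N, and 18 and 8 for C3H, 72 in all, and the labels do not say whether each array is a separate animal. If some share an animal, the p-values measure only the spread between these samples.

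P450 enzymes insert 1 atom of oxygen into their substrate, with electrons passed on from NADPH. Members of the Cyp2c family oxidise drugs and turn arachidonic acid into epoxyeicosatrienoic and hydroxyeicosatetraenoic acids, which act as lipid signals. Several are induced through the nuclear receptors CAR (Nr1i3) and PXR (Nr1i2), which sense foreign compounds and bile acids, and several are found mainly in the hepatocytes around the central vein. Cyp2c70 stands apart in function, since it makes the muricholic acids, the bile acids typical of mice.

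All 10 listed genes lie on chromosome 19 in the RefSeq annotation of GRCm38.p6. In order of position they run Cyp2c55, Cyp2c29, Cyp2c39, Cyp2c38, Cyp2c40, Cyp2c37, Cyp2c54, Cyp2c50, Cyp2c70 and Cyp2c44, with 5 further Cyp2c genes between Cyp2c55 and Cyp2c37. RefSeq promoters, 250 bases before the start of transcription to 50 after it, were at hand for 7 of the 9 measured genes. Those of the 3 genes whose level changed with the diet are shown here, together with that of Cyp2c39, whose level followed Cyp2c38. Capitals mark exact matches, on either strand, to TATAAA (the TATA box), CAAAGTCCA (a motif bound by HNF4) and AGGTCA (the half-site of many nuclear receptors). No matches to different motifs overlapped.

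Cyp2c55 promoter (chr19:39006769-39007068, + strand): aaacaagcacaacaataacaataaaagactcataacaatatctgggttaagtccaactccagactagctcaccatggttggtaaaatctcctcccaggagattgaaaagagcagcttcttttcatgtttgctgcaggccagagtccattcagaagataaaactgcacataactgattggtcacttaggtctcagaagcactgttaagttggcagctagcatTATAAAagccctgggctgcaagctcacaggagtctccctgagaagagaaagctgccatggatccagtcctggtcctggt
Cyp2c70 promoter (chr19:40187237-40187536, - strand): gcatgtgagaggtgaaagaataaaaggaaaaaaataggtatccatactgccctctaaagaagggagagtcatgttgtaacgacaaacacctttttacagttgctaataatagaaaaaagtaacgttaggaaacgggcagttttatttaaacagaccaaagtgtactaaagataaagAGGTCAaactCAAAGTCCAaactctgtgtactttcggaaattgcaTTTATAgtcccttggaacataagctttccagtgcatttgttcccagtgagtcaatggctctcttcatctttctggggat
Cyp2c38 promoter (chr19:39463026-39463325, - strand): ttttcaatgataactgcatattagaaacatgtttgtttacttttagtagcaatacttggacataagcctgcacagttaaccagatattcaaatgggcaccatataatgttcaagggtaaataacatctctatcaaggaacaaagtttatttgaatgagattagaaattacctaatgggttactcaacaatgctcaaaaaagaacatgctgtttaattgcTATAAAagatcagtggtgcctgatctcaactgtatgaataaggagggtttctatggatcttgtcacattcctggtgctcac
Cyp2c39 promoter (chr19:39347096-39347395, + strand): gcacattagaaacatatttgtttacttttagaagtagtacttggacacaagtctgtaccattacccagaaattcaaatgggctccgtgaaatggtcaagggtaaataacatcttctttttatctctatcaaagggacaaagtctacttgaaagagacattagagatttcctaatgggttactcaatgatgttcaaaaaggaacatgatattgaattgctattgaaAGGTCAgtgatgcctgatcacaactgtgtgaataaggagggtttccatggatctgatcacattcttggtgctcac

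TATAAA was present in the promoters of 5 of the 7 genes and in 13.6% of all 32851 promoters of the same length. The count takes a gene with a match in any of its promoters, whereas the share is per promoter. Cyp2c39 is among the 5 only through its other promoter, not printed here, where TATAAA began at -3. In Cyp2c55 it began at base -29 relative to the start site, in Cyp2c38 at -31, and in Cyp2c70 it stood on the opposite strand at -29. CAAAGTCCA occurred in 0.475% of all promoters and in 1 of the 7, that of Cyp2c70, where it began at -64. The promoters of the related genes Cyp2c65, Cyp2c67 and Cyp2c68 also held it. AGGTCA was found in 16.3% of all promoters and in 3 of the 7 (Cyp2c29, Cyp2c39 and Cyp2c70), and in Cyp2c70 it began at -74, just before the CAAAGTCCA match. RefSeq gives Cyp2c39 a pair of starts. The promoter printed here is 78.1% identical to that of Cyp2c38, and the other is 72.6% identical. That other promoter (chr19:39510572-39510871) lies on the far side of the Cyp2c38 promoter. Which start gave the measured transcript was not tested. These matches describe the letters of the reference strain and were not tested as binding sites.

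Values are robust multi-array average (RMA) levels on the log2 scale as deposited, so that a difference of 1 is a doubling. The median of an array lay at 6.46 to 6.65 in 129, at 4.51 to 4.67 in B6J and B6N, and at 3.10 to 3.28 in C3H, and the arrays were therefore taken as 3 separately normalised sets. Diet was therefore compared within a strain, and levels were tested between strains only for B6N against B6J. All 9 hepatocyte markers lay above the array median in every group, and the intestinal list of 10 genes, which matters because Cyp2c55, Cyp2c65 and Cyp2c66 are also gut genes, averaged -0.77 to 0.08 relative to the array median on all arrays but 1. The exception was 129 control 5 at 0.72, where Cyp2c65 stood at 6.12 against 4.09 to 4.5 on the other 129 controls and Cyp2c66 at 7.87 against 6.14 to 6.49. Pancreatic acinar markers varied widely between livers (-0.13 to 6.21). In B6N their group medians were 0.17 in controls and 1.6 on HFD, with 0 of 16 called by limma and 4 at an unadjusted p below 0.05. Their group-centred correlation with the Cyp2c genes ran from -0.26 to -0.03. Within bulk liver, fewer cells of a type and less RNA per cell cannot be told apart, and the probes of close Cyp2c relatives may share signal, which was not tested.

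Cyp2c55 fell on HFD in 129, B6J and B6N, Cyp2c70 fell in B6N and C3H, and Cyp2c38 rose in C3H. The remaining 6 genes, Cyp2c29, Cyp2c37, Cyp2c39, Cyp2c44, Cyp2c50 and Cyp2c54, did not pass the test in any strain. A gene was called when its adjusted p in limma, fitted to all 72 arrays with Benjamini-Hochberg adjustment over the 19938 genes, was below 0.05. By this measure 1 of 9 Cyp2c genes was called in 129 (0.577% of all genes), 1 of 9 in B6J (0.296%), 2 of 9 in B6N (0.918%) and 2 of 9 in C3H (0.853%). The list was drawn up with diet results of these arrays known, so these counts are a description and not independent evidence.

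For 129, B6J, B6N and C3H in turn, the median change of the 9 genes was -0.19, -0.32, -0.24 and 0.04, and the median of all genes was between 0.00 and 0.01. In B6J all 9 genes had a mean below that of the controls, with 1 of them called, while in C3H 5 lay above and 4 below. These signs are not independent, since several of the genes varied together among livers.

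**Figure D1:**
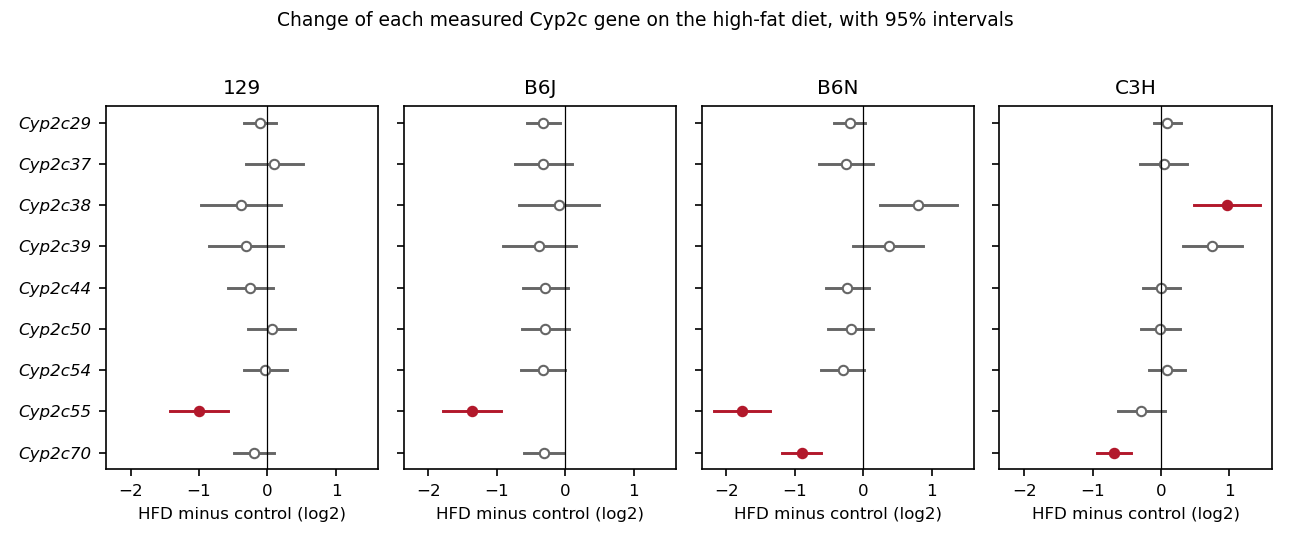
HFD minus control on the log2 scale (horizontal axis) for the 9 measured Cyp2c genes (vertical axis) in each strain, with 95% intervals from limma; filled red points passed the test and open grey points did not. Cyp2c55 is the leftmost point in 129, B6J and B6N at -1.0, -1.36 and -1.77, and Cyp2c38 the rightmost in B6N and C3H at 0.80 and 0.96.

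Cyp2c55 (probe set 10463005) converts arachidonic acid to hydroxyeicosatetraenoic acids and is strongly induced by CAR and PXR activators. In 129 its level in the 8 controls ran from 5.57 over a median of 5.96 to 6.85. In the 7 HFD livers it ran from 4.71 over 5.0 to 5.55. The groups did not overlap, which 0.251% of all genes shared in 129. The change was -1.0 ± 0.21 (SE; limma adjusted p = 0.00537), a level 2.0-fold lower (95% interval 1.49 to 2.68).

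B6J gave the same separation. The controls lay at 5.39, 5.86 and 6.22 (lowest, median, highest) and the HFD livers at 4.15, 4.37 and 5.32. The highest HFD liver, replicate 5, was still below the lowest control, and groups without overlap were found for 0.346% of genes. The fall was 2.57-fold (1.92 to 3.45; -1.36 ± 0.21, limma adjusted p = 2.26e-05).

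The difference was largest by value in B6N, where controls ran from 5.67 over 5.97 to 7.20 and HFD livers from 3.82 over 4.40 to 5.13. All 8 HFD livers lay below all 8 controls (no overlap for 0.356% of genes), and the level was 3.42-fold lower (2.57 to 4.53; -1.77 ± 0.20, limma adjusted p = 3.44e-09). Leaving out any 1 array kept the call in each of these 3 strains, with changes of -1.08 to -0.89 in 129, -1.50 to -1.31 in B6J and -1.88 to -1.63 in B6N. Without 129 control 5, the array with intestinal signal, the change in 129 was -1.0. With the acinar level as a covariate, the change of Cyp2c55 in B6N was -1.76 (limma adjusted p = 1.1e-08).

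Macrophage and Kupffer cell markers moved with the diet in 129, where 6 of 10 were higher on HFD by limma. Their mean level relative to the array median ran from 2.02 to 2.56 in the 129 controls and from 2.41 to 3.63 on HFD. None of the 10 was called in B6J, B6N or C3H, with 4, 0 and 1 at an unadjusted p below 0.05. Their part in the value of Cyp2c55 in 129 was not tested.

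In C3H the value was smaller. The 18 controls ran from 3.55 over 4.22 to 5.03 and the 8 HFD livers from 3.44 over 3.77 to 4.54, with 1 HFD liver below every control. The change of -0.29 ± 0.17 was not called (limma adjusted p = 0.726), and its 95% interval of -0.63 to 0.06 lies above those of B6J (-1.79 to -0.94) and B6N (-2.18 to -1.36) and overlaps that of 129 (-1.42 to -0.58). C3H minus 129 was 0.71 ± 0.27 and was not called (adjusted p = 0.76). The difference between the diet effects of C3H and B6N was 1.49 ± 0.27 (95% interval 0.95 to 2.02; limma adjusted p = 0.00199), a comparison in which 0.0451% of genes were called. A test for any difference of the diet effect among the 4 strains also called Cyp2c55 (limma adjusted p = 0.00651; 0.125% of genes called), as the sole gene of the 9. With the replicate number as a block that adjusted p was 0.08. The other 5 pairs of strains gave no call for any Cyp2c gene by limma. Of all genes, the share called at an adjusted p below 0.05 was 0.00502% for B6J against 129 and 0.0401% for B6N against 129. It was 0.0602% for C3H against 129, 0% for B6N against B6J and 0.0401% for C3H against B6J. At the looser limit of an unadjusted p below 0.05 the number of Cyp2c genes was, in the same order, 0, 3, 4, 3 and 4. The share of all genes at that looser limit was not computed, so these numbers have no background beside them. Because the sets were normalised separately, their log2 scales may be compressed to different degrees, which bears on every difference between strains of different sets and was not tested.

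The level of Cyp2c55 was low throughout. Group means relative to the array median went from -0.44 to -1.43 in 129, from 1.30 to -0.08 in B6J and from 1.59 to -0.18 in B6N, so that 7 of 7, 6 of 7 and 6 of 8 HFD arrays lay below the median of their array. In C3H the means were 1.06 and 0.74. Signals this low may include background, and the fold changes are then uncertain in size. With all arrays quantile normalised together the change in 129 was -0.70 and was no longer called (limma adjusted p = 0.12), whereas B6J and B6N kept their calls at -1.24 and -1.70.

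**Figure D2:**
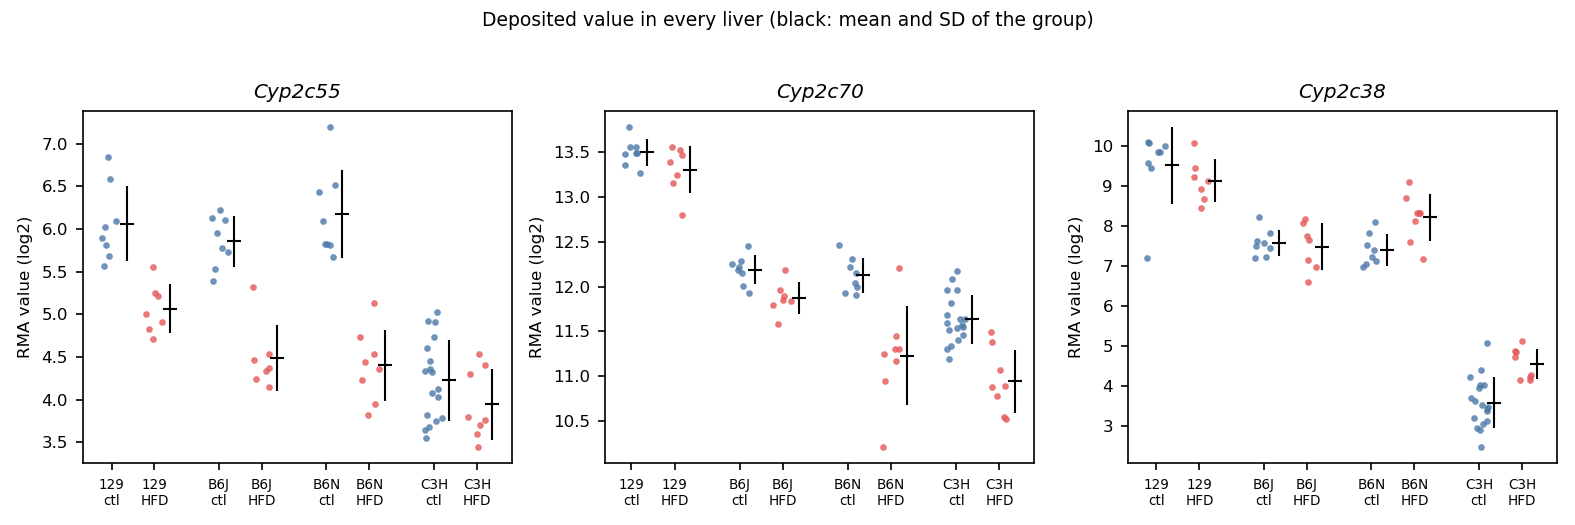
Deposited log2 value (vertical axis) of Cyp2c55, Cyp2c70 and Cyp2c38 on every array, by strain and diet (ctl, control in blue; HFD in red), with group mean and SD in black; levels are not on a common scale between 129, the B6 strains and C3H. Cyp2c55 shows no overlap between diets in 129, B6J and B6N, Cyp2c70 has 1 HFD liver in B6N among the controls, at 12.21, and Cyp2c38 in 129 has 1 control at 7.19, far below the others.

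The arrays of the B6 strains were also cut into 2 parts by clustering of their group-centred values. The cut returns 2 parts from any data, so it does not show that a division exists, and the labels give no reason for one. Within the first part, of 4 control and 5 HFD arrays for B6J and 3 and 3 for B6N, the change of Cyp2c55 was -1.41 in B6J (limma adjusted p = 0.0023) and -1.52 in B6N (0.015). In the other part, of 4 and 2 arrays for B6J and 5 and 5 for B6N, it was -1.49 in B6J, not called (0.18), and -1.93 in B6N (5.4e-07).

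Other targets of CAR and PXR give the setting for Cyp2c55. This list has 11 measured genes. In 129 3 of them fell, B6J had 2 that fell and B6N 3, and for C3H 2 fell and 1 rose, with list medians of -0.20, -0.21, 0.10 and 0.19 in that order. Cyp3a11, the main drug-oxidising P450 of its subfamily in mouse liver, fell in the same 3 strains (-1.06 ± 0.19 in 129, -0.79 ± 0.19 in B6J and -1.08 ± 0.18 in B6N; limma adjusted p = 0.000481, 0.0343 and 5.52e-05) and rose in C3H (0.61 ± 0.16, adjusted p = 0.0288). Ces2a, a carboxylesterase, fell in all 4 strains, with changes (129, B6J, B6N, C3H) of -0.69, -0.98, -1.19 and -0.36. Slco1a4, an organic anion importer, fell in 129 and B6N (-0.94 ± 0.21 and -0.98 ± 0.21). Cyp2b10, the usual marker of CAR activation, did not pass the test in any strain, with values of -0.56, -0.42, 0.18 and 0.38.

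No regulator of the Cyp2c genes was called lower. Of 14 measured nuclear receptors and other factors that regulate Cyp2c genes, 1 was higher in B6N (Ppara, the fatty acid receptor, 0.69 ± 0.17, limma adjusted p = 0.0141) and none passed the test in the other 3 strains, where 2, 1 and 3 genes had an unadjusted p below 0.05 in 129, B6J and C3H. Over the mean of the 4 strains, Ppara (0.50 ± 0.08, adjusted p = 5.34e-06) and Nr1i3, which encodes CAR (0.37 ± 0.11, adjusted p = 0.0315), were higher. Nr1i2, which encodes PXR, changed by 0.01 ± 0.06 and did not pass the test.

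Cyp2c70 (probe set 10467410) showed another pattern. In B6N the controls lay at 11.91, 12.09 and 12.46 (lowest, median, highest), and the HFD livers at 10.21, 11.28 and 12.21. Of the 8 HFD livers 7 were below every control, and replicate 8 was the one that overlapped. The level was 1.86-fold lower (1.53 to 2.26; -0.89 ± 0.14, limma adjusted p = 1.58e-05).

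In C3H the 18 controls ran from 11.19 over 11.58 to 12.17 and the 8 HFD livers from 10.53 over 10.89 to 11.49. All 8 HFD livers were below the control median and 6 were below every control. The fall was 1.61-fold (1.36 to 1.90; -0.69 ± 0.12, limma adjusted p = 0.000158). Leaving out any 1 array gave -1.03 to -0.75 in B6N and -0.76 to -0.63 in C3H, all called. With the acinar level as a covariate the change of Cyp2c70 in B6N was -0.89 (limma adjusted p = 3.5e-05).

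B6J and 129 gave smaller values that did not pass the test. In B6J the controls ran from 11.93 over 12.20 to 12.45 and the HFD livers from 11.58 over 11.85 to 12.18, with 5 of 7 below every control and a change of -0.31 ± 0.15 (limma adjusted p = 0.814). In 129 the values were 13.27, 13.49 and 13.78 in controls and 12.80, 13.39 and 13.55 on HFD, a change of -0.19 ± 0.15 (adjusted p = 0.996). No difference of the diet effect between strains was called for Cyp2c70. The nearest, B6N minus 129, was -0.70 ± 0.21 (95% interval -1.11 to -0.29; adjusted p = 0.349). It passed the test without B6N HFD 8, the overlapping liver (-0.84, adjusted p = 0.039). With arrays weighted by their quality in limma it also passed (-0.85, 0.0065), and the test over all 4 strains called Cyp2c70 (0.017). Those weights raised the genes called from 8 to 73 for B6N minus 129 and from 25 to 71 over all 4 strains.

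The B6 strains share a normalisation set, so their levels can be compared directly. Among controls no Cyp2c gene differed between B6N and B6J by limma (0.0351% of all genes called; 1 of the 9 Cyp2c genes, Cyp2c44, had an unadjusted p below 0.05, with -0.40 ± 0.16). For Cyp2c70 the control difference was -0.06 ± 0.14 (95% interval -0.34 to 0.23). On HFD, Cyp2c70 was the single Cyp2c gene called, 0.64 ± 0.15 lower in B6N on the log2 scale (limma adjusted p = 0.0318; 0.191% of genes called). That call was lost when any of 9 single arrays was left out, namely B6J HFD 2, 3, 5, 6 or 7 or B6N HFD 1, 2, 5 or 6, with changes of -0.64 to -0.49 and adjusted p of 0.052 to 0.24. It was also lost when the B6 arrays were fitted alone (-0.64, adjusted p = 0.082). Within the B6 parts the diet change of Cyp2c70 in B6N was -0.79 in the first (adjusted p = 0.26, not called) and -0.96 in the other (0.0011). In the larger part of the C3H arrays, 14 controls and 7 HFD, it was -0.71 (0.00034).

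Cyp7a1, the rate-limiting enzyme of bile acid synthesis, and Cyp7b1, which hydroxylates oxysterols in the alternative route, fell in the same strains as Cyp2c70. They were the 2 genes called among the 12 of the bile acid list in each of B6N and C3H, and none was called in 129 or B6J, where the list medians were -0.04 and -0.22. Cyp7a1 changed by -2.12 ± 0.40 in B6N (limma adjusted p = 0.00047) and -1.53 ± 0.34 in C3H (0.00568), against -0.76 ± 0.42 in 129 and -0.91 ± 0.42 in B6J, neither called. Cyp7b1 changed by -0.68 ± 0.18 in B6N (0.034) and -0.83 ± 0.15 in C3H (0.000337). Cyp8b1, which directs synthesis to cholic acid, did not pass the test in any strain (-0.37 to 0.09).

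Genes that are higher in male than in female liver also moved in the strains where Cyp2c70 fell. Of the 19 measured, none was called in 129, 1 was lower in B6J, 6 in B6N and 8 in C3H, and none was higher in any strain. The list medians were -0.03, -0.30, -0.48 and -0.48, and Cyp7b1 belongs to this list as well. Gstp1, a glutathione transferase, fell in B6J (-0.68 ± 0.13), B6N (-0.94 ± 0.13) and C3H (-0.73 ± 0.11), with limma adjusted p = 0.00261, 5.2e-07 and 4.18e-06. C8b, a complement component, fell in B6N (-0.87 ± 0.13) and C3H (-0.74 ± 0.11). Among 18 genes higher in females, 1 fell in 129, 2 rose and 1 fell in B6J, 4 rose and 1 fell in B6N, and 3 rose in C3H. The P450 gene Cyp2b9 was among those that rose in B6N (3.02 ± 0.41) and C3H (3.49 ± 0.34).

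Cyp2c38 (probe set 10467372), an arachidonic acid oxidising enzyme, went the other way. The 18 C3H controls ran from 2.46 over 3.51 to 5.08 and the 8 HFD livers from 4.15 over 4.5 to 5.11. All 8 HFD livers were above the control median, yet only 1 exceeded every control. The level was 1.95-fold higher (1.4 to 2.72; 0.96 ± 0.24, limma adjusted p = 0.0235), and 6 of the 18 controls lay below their array median. The call was lost without HFD replicate 5, 7 or 8 (adjusted p = 0.057, 0.055 and 0.08), and in the larger part of the C3H arrays the change was 0.88 (adjusted p = 0.13). With array weights it was 0.79 and not called (adjusted p = 0.29), where 105 of all genes were called against 170 in the main fit.

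In B6N the controls of Cyp2c38 lay at 6.98, 7.32 and 8.10 and the HFD livers at 7.18, 8.32 and 9.10, and 6 of 8 HFD livers were above every control. The change of 0.80 ± 0.28 was not called (limma adjusted p = 0.317). In B6J the ranges were 7.19 to 8.22 and 6.60 to 8.16, with a change of -0.10 ± 0.29. In 129 the controls ran from 7.19 over 9.85 to 10.09 and the HFD livers from 8.44 over 9.13 to 10.06, a change of -0.39 ± 0.29. The lowest 129 control was replicate 6, which also had the lowest hepatocyte marker level of the 129 controls (6.76, against 7.07 to 7.18). Without it the change in 129 was -0.72, still not called (adjusted p = 0.42), the difference between C3H and 129 was 1.68 and passed the test (adjusted p = 0.0084), and the test for any strain difference called Cyp2c38 besides Cyp2c55. With all arrays kept that difference was 1.35 ± 0.38 (adjusted p = 0.247). With array weights the change in 129 was -0.74 and passed the test (adjusted p = 0.0098). The differences of C3H and B6N from 129 also passed (1.54, adjusted p = 0.014, and 1.6, adjusted p = 0.0038). Of all genes, these weights called 576 in 129 against 115 in the main fit. They called 24 against 12 for C3H minus 129 and 73 against 8 for B6N minus 129.

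Cyp2c39, a neighbour of Cyp2c38 that hydroxylates retinoic acid, had values of the same sign as Cyp2c38 in every strain. They were, in the order 129, B6J, B6N, C3H, -0.32 ± 0.27, -0.38 ± 0.27, 0.37 ± 0.26 and 0.75 ± 0.22, and none was called (limma adjusted p = 0.996, 0.999, 1.0 and 0.087). In C3H the 18 controls ran from 4.28 over 6.15 to 7.64, a 10.3-fold range, and the HFD livers from 6.00 over 7.05 to 7.73, with 7 of 8 above the control median. Without C3H control 13 or HFD replicate 1 the change passed the test (0.84 and 0.89; adjusted p = 0.023 and 0.032). None of 14 measured genes of retinoic acid handling was called in any strain by limma, and at most 2 had an unadjusted p below 0.05, in C3H.

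Between strains, Cyp2c39 had the widest spread of levels relative to the array. Its control mean lay 5.50 above the array median in 129, 3.01 above it in C3H, and at -0.13 and -0.24 in B6J and B6N. Of the control arrays, 6 of 8 in B6J and 5 of 8 in B6N were below their array median, so at this signal its presence in the B6 livers was not resolved. Cyp2c38 stood 3.0 above the median in 129 controls, 3.01 in B6J, 2.82 in B6N and 0.41 in C3H. Cyp2c44, an arachidonic acid epoxygenase that lies apart from the main gene cluster, stood at 6.54, 6.99, 6.57 and 4.61. These are separately normalised sets, so the gaps between 129, the B6 strains and C3H were not tested. Between the controls of B6N and B6J, which share a set, Cyp2c39 differed by -0.08 ± 0.26 (95% interval -0.59 to 0.44; limma adjusted p = 0.97).

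**Figure D3:**
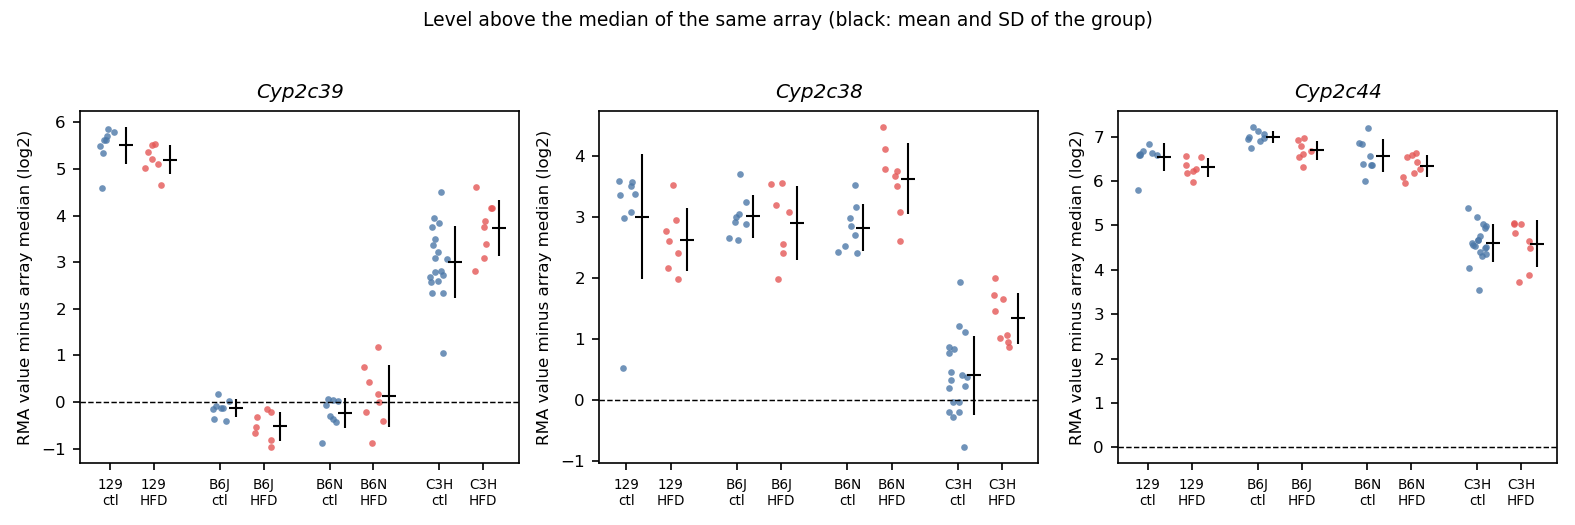
Level minus the median of the same array (vertical axis, log2) for Cyp2c39, Cyp2c38 and Cyp2c44 on every array, by strain and diet (ctl, control in blue; HFD in red), with group mean and SD in black and a dashed line at the array median. Cyp2c39 lies at the array median in B6J and B6N and well above it in 129 and C3H, whereas Cyp2c38 is lowest in C3H controls, at a mean of 0.41.

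Cyp2c29, Cyp2c37, Cyp2c50 and Cyp2c54, all enzymes that oxidise arachidonic acid, were high in every strain and had small diet values. Cyp2c29, the classic phenobarbital-induced member, lay 6.71 to 8.08 above the array median in all 8 groups. Its changes in 129, B6J, B6N and C3H were -0.11 ± 0.12, -0.32 ± 0.12, -0.20 ± 0.12 and 0.09 ± 0.10. In B6J, its controls ran from 11.29 over 11.61 to 11.91 and its HFD livers from 11.03 over 11.27 to 11.55, with 4 of 7 below every control. The limma adjusted p there was 0.573, and the 95% interval of -0.56 to -0.08 corresponds to a fall of 1.06-fold to 1.47-fold. That interval is not adjusted for the number of genes.

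Cyp2c37 changed by 0.10, -0.32, -0.25 and 0.04 in 129, B6J, B6N and C3H, Cyp2c50 by 0.06, -0.30, -0.18 and -0.01, and Cyp2c54 by -0.03, -0.33, -0.30 and 0.09. For Cyp2c54 in B6N, 6 of 8 HFD livers lay below every control (9.57 over 10.02 to 10.57 against 10.15 over 10.22 to 10.67), with an adjusted p of 0.903. Cyp2c44 changed by -0.25, -0.29, -0.24 and 0.00, and in B6J 5 of 7 HFD livers were below every control (10.90 over 11.22 to 11.52 against 11.36 over 11.54 to 11.73; adjusted p = 0.947). None of these values was called. In 129, the signs for Cyp2c37 and Cyp2c50 rest on control 5, without which they were -0.08 and -0.07. Without HFD 2, Cyp2c37 was -0.02. The intestinal signal of control 5 was given above, and its part in the low values of these genes was not tested.

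Of the Cyp2c genes outside the list, Cyp2c65, Cyp2c66, Cyp2c67 and Cyp2c68 were measured, and none was called within a strain. By limma, 0 of these 4 passed in 129, B6J, B6N and C3H, where 1, 2, 2 and 2 had an unadjusted p below 0.05. In C3H, Cyp2c67 passed without control 11, HFD 6 or HFD 7 (-0.60 to -0.54), and Cyp2c68 without HFD 6 or HFD 7 (-0.82 and -0.81). Over the mean of the 4 strains, Cyp2c67 (-0.41 ± 0.08, adjusted p = 0.000565) and Cyp2c68 (-0.68 ± 0.12, adjusted p = 3.63e-05) fell, as did Cyp2c55 (-1.11 ± 0.10, 9.22e-14) and Cyp2c70 (-0.52 ± 0.07, 4.97e-08), in a comparison where 3.16% of all genes were called. In B6J all 7 HFD livers lay below every control for both Cyp2c67 and Cyp2c68, where 0.346% of all genes had no overlap. Neither was called there (limma adjusted p = 0.524 and 0.553). The values of Cyp2c68 in the 4 strains were -0.68, -0.69, -0.64 and -0.72. That of 129 rests on HFD 1, at 7.05 against a median of 10.45. Without it Cyp2c68 changed by -0.20 in 129 (limma adjusted p = 1.0) and by -0.56 over the mean of the strains (2.2e-07), while Cyp2c67 changed by 0.02 in 129 and by -0.35 over the mean (0.00085).

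Livers of the same group differed together in some Cyp2c genes and not in others. After the mean of each of the 8 groups was removed, Pearson's r over the 72 arrays was 0.87 for Cyp2c37 with Cyp2c54, 0.86 for Cyp2c50 with Cyp2c54 and 0.80 for Cyp2c37 with Cyp2c50. These 3 genes are neighbours, and the promoters of Cyp2c37 and Cyp2c50 are 86.6% identical. Cyp2c29 followed Cyp2c50 (0.74) and Cyp2c54 (0.66). Cyp2c38 and Cyp2c39 had r = 0.72, with 0.88 in 129, 0.50 in the B6 arrays and 0.90 in C3H. For Cyp2c70 the values were -0.31 with Cyp2c38, 0.44 with Cyp2c50 and, outside the list, 0.65 with Cyp2c67. These differed between the sets. With Cyp2c38 the r of Cyp2c70 was -0.43 in 129, -0.67 in the B6 arrays and 0.08 in C3H. With Cyp2c50 it was 0.56, 0.06 and 0.70, and with Cyp2c67 0.75, 0.46 and 0.84. Over the 72 arrays Cyp2c55 had no r above 0.30 with any of the other 8. Within the sets its r went from -0.54 (Cyp2c70 in 129) to 0.43 (Cyp2c29 in C3H). These are descriptions over arrays that share RNA, normalisation set and possibly probe signal between close relatives, with no test attached.

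**Figure D4:**
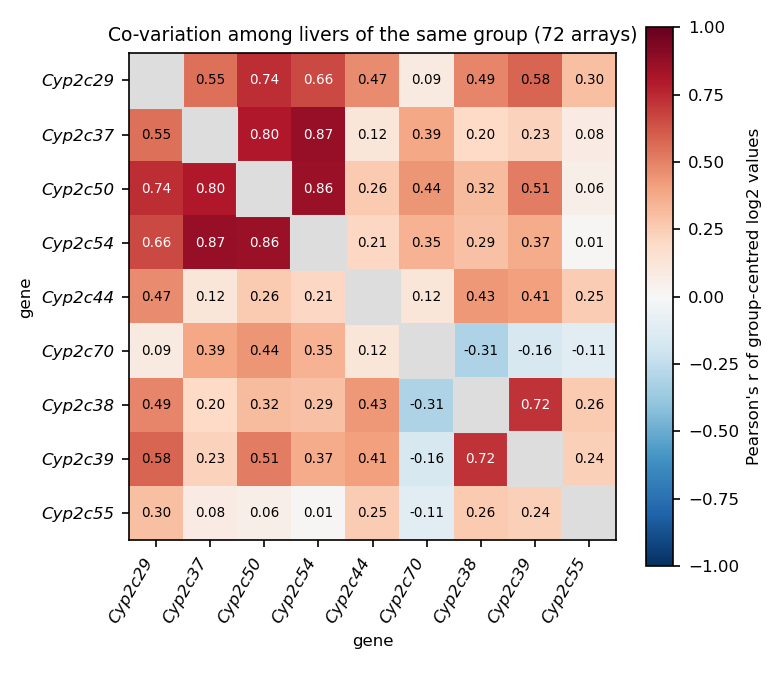
Pearson's r of group-centred log2 values over 72 arrays for each pair of the 9 measured Cyp2c genes (both axes), red for positive and blue for negative. Cyp2c37, Cyp2c50 and Cyp2c54 form a block at 0.80 to 0.87, Cyp2c38 and Cyp2c39 a pair at 0.72, and the row of Cyp2c55 stays between -0.11 and 0.30.

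By the same measure, the genes outside the family most like each member were named, 3 per gene. For Cyp2c70 they were Aadat (r = 0.76), a kynurenine aminotransferase, Hsd3b5 (0.75), a male-biased steroid enzyme, and Ugt2b1 (0.74), a glucuronosyltransferase. Pon1, the paraoxonase, came first for Cyp2c37, Cyp2c50 and Cyp2c54 (0.74, 0.76 and 0.73). Cyp2c29 was closest to Cyp2j5, another arachidonic acid epoxygenase, and to Idh1 (both 0.73). Rdh16, a retinol dehydrogenase, led for Cyp2c38 (0.71), and the amine oxidase Maob for Cyp2c39 (0.67). Slc38a4, an amino acid transporter, led for Cyp2c44 (0.75). For Cyp2c55 the values were lower, with Ppa1, a pyrophosphatase, and Lacc1 at 0.57.

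Further lists covered other P450 genes that oxidise arachidonic acid, epoxide hydrolases, and genes of pericentral and of periportal hepatocytes. Of 16 other P450 genes that oxidise arachidonic acid, Cyp4a14 and Cyp4a31 rose in 129, B6N and C3H, and Cyp4a10 rose in B6N (1.19 ± 0.25) and C3H (2.18 ± 0.21); these are fatty acid omega-hydroxylases induced through Ppara. Cyp4a12a fell in B6N (-0.56 ± 0.15, limma adjusted p = 0.0433) and Cyp4a12b in C3H (-0.52 ± 0.14, 0.0373), and no gene of this list was called in B6J. None of the 4 epoxide hydrolases was called within a strain by limma, with 1 gene at an unadjusted p below 0.05 in each strain. Over the mean of the strains Ephx1 was lower (-0.35 ± 0.10, 0.0242) and Ephx2, which degrades epoxyeicosatrienoic acids, higher (0.25 ± 0.05, 0.000746). Of 16 pericentral genes outside the family 1 was lower in 129 and in C3H (Oat, -0.56 ± 0.12 and -0.42 ± 0.10), and none was called in B6J or B6N, where 1 and 3 had an unadjusted p below 0.05. More periportal genes were called by limma. Of 14 measured, 1, 1, 2 and 4 were lower in 129, B6J, B6N and C3H, and 1 was higher in C3H. Their list medians were -0.11, -0.10, -0.15 and -0.23.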

How the data were processed

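RNA of 72 livers was measured on Affymetrix arrays. Per the submitters' processing notes, the deposited log2 values were made by RMA in Affymetrix Expression Console 1.1; no build is named there. All 35556 probe sets were taken as deposited. Of these, 21789 carry 1 gene symbol, 1621 several and 12146 none in the annotation used. A gene with several probe sets was represented by the one of highest overall mean, which left 19938 genes.

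Groups were taken from the labels. limma 3.58.1 in R 4.3.3 fitted 1 mean per group (64 residual degrees of freedom), was tested on simulated data, and gave two-sided p-values adjusted over all genes. The number of arrays limits the precision. Cyp2c genes, related lists and named genes were chosen with earlier results of these data known. Named outside the family were the 3 genes most correlated with each member and list genes called or defining a list. In B6N all 8 same-numbered pairs deviated together (r = 0.10 to 0.46), but only 2 of 8 HFD arrays were most like the control of their own number. The labels gave no support for a pairing. As a block the replicate numbers changed no diet call. Alternatives covered normalisation, array weights, blocks, filters and leaving out each array. Sequences came from RefSeq (GRCm38.p6), with identity from Biopython 1.88 global alignments.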

Additional observations from a re-analysis of the deposited data

Results flagged for a closer look

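In 11 of 63 combinations of a Cyp2c gene and a group of 7 or 8 arrays, 1 array stood apart from the rest by Dixon's criterion, which chance meets in about 1 of 20. Control 5 of 129 was lowest for Cyp2c37 (9.02, next 10.03), Cyp2c50 (10.80, next 11.56) and Cyp2c54 (10.97, next 11.76), the 3 genes with group-centred r of 0.80 to 0.87 among themselves. Control 6 of 129 was lowest for Cyp2c38 (7.19, next 9.45) and Cyp2c44 (12.45, next 13.07); its hepatocyte marker level was 6.76, against 7.07 to 7.18 in the other 7. The part of that level in the low values was not tested. Cyp2c29 was lowest in 129 HFD 1 (13.03), Cyp2c39 in B6N control 1 (3.66), and Cyp2c50 in B6J control 6 (10.89) and B6J HFD 5 (10.43), while B6N HFD 4 was highest for Cyp2c50 (11.55). B6J HFD 5 was also highest for Cyp2c55 (5.32, next 4.54).

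The diet effect on Cyp2c55 was called different between strains, by 1.49 for C3H minus B6N (limma adjusted p = 0.00199) and in the test over all 4 strains (limma adjusted p = 0.00651). With the replicate number as a block, the test over all 4 strains did not call it (limma adjusted p = 0.08). C3H and B6N belong to separately normalised sets, and Cyp2c55 on HFD in B6N lay near the array median.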

How the results depend on the processing

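Leaving single-array omissions aside, 146 counts of called Cyp2c genes stayed within 1.5 times the main count and 11 did not. Over every comparison of the 9 genes, 1399 values stayed on their side of the threshold, 7 lost a call and 7 gained one, all 7 with array weights. Those also called Cyp2c44 for the mean of the strains (-0.23, limma adjusted p = 0.026). With them the count was 2 in 129 (Cyp2c38 added), 1 in C3H (Cyp2c38 lost), 2 for B6N minus 129, 1 for C3H minus 129 and 3 for any strain difference. Calls among all genes changed as well, from 115 to 576 in 129 and from 170 to 105 in C3H. They went from 8 to 73 for B6N minus 129 and from 12 to 24 for C3H minus 129. For any strain difference they went from 25 to 71, and for the mean of the strains from 630 to 836. Quantile normalisation left 0 in 129, where 127 of all genes were called against 115 in the main fit. With the replicate block the count for any strain difference was 0, where 6 of all genes were called against 25 in the main fit. Outside B6N, the pairing check found 6 of 7 pairs over 0.1 in 129 and 5 of 7 in B6J. It found 1 of 8 in C3H and 6 of 8 between B6N and B6J controls. In the same order, 1, 2, 0 and 3 arrays were most like the array of their own number. Whether the numbers pair arrays is therefore not settled by this check. Fitting only the B6 arrays left 0 for B6N minus B6J on HFD, where 37 of all genes were called against 38 in the main fit. Parts of arrays were chosen after seeing the data, with fewer arrays in each fit. Within them the counts were 1 in B6N (first part), 0 in B6J (other part) and 1 in C3H (larger part). Of all genes, 39, 2 and 142 were called there, against 183, 59 and 170 in the main fit. Causes were otherwise not tested.

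Under these settings diet values within a strain reversed sign 9 times, none of them called in the main comparison; Cyp2c37 in B6J was -0.32 there. In C3H, quantile normalisation gave 0.01 for Cyp2c44 and 0.01 for Cyp2c50, the block of parts 0.05 and the larger part 0.01 for Cyp2c50. In 129, array weights gave -0.06 for Cyp2c37, and the replicate block 0.02 and the acinar covariate 0.00 for Cyp2c54. In B6J, array weights gave 0.03 for Cyp2c38 and the other part 0.02 for Cyp2c37.

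Leaving out 1 array at a time gave counts of 1 to 3 in C3H, 0 to 1 for B6N minus B6J on HFD, 0 to 1 for C3H minus 129, 0 to 1 for B6N minus 129 (Cyp2c70 called without B6N HFD 8) and 1 to 2 for any strain difference. Ranges that crossed 0 were, in 129, -0.27 to 0.02 for Cyp2c67, -0.08 to 0.22 for Cyp2c37, -0.07 to 0.15 for Cyp2c50 and -0.16 to 0.08 for Cyp2c54. In B6J the range was -0.21 to 0.05 for Cyp2c38, and in C3H -0.09 to 0.16 for Cyp2c37, -0.08 to 0.11 for Cyp2c44 and -0.12 to 0.06 for Cyp2c50. Signals near the array median, as for Cyp2c55 on HFD, Cyp2c38 in C3H and Cyp2c39 in the B6 strains, limit what can be resolved.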
